A study of Mus musculus with 18 samples.

Results

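Genes of the complement system were followed through 3 lung macrophage populations of WT mice and of mice with a conditional knockout of ezrin, 24 h after nebulized LPS. The 9 genes were *C1qa*, *C1qb*, *C1qc*, *C2*, *C3*, *Cfb*, *Cfp*, *C3ar1* and *C5ar1*. They were taken by symbol from the 21254 genes of the count table, all 9 were found, and all 9 were among the 15811 genes tested.

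Complement is a cascade of proteins that tags microbes and dying cells for uptake and recruits leukocytes. C1q, built of the chains encoded by *C1qa*, *C1qb* and *C1qc*, binds immune complexes and starts the classical pathway, and C2 provides the protease of the C3 convertase of that pathway. Factor B (*Cfb*) does so in the alternative pathway, whose convertase is stabilized by properdin (*Cfp*). All pathways meet at C3, and the fragments C3a and C5a act on leukocytes through the receptors encoded by *C3ar1* and *C5ar1*. Macrophages are a source of C1q and properdin.

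The libraries came from moMs (CD45+ CD11b+ MHC-II- Ly6C+), tnsIMs (MHC-II+ Ly6C+) and matIMs (MHC-II+ Ly6C-), sorted from perfused lungs of C57BL/6 background mice aged 3 to 5 months, of both sexes. All mice received LPS of *Pseudomonas aeruginosa* (12.5 mg in 5 ml over 15 min), and no untreated library was analysed here. Ezr-KOm mice carry floxed *Ezr* alleles (B6.Ez fl/fl) with *Cx3cr1* Cre, and the WT mice carry the same Cre (B6.Cx3cr1tm1.1(cre)Jung/J) without floxed *Ezr*, so that both genotypes share the Cre allele at *Cx3cr1*. The promoter is not confined to macrophages, since the study saw weak reporter activity in dendritic cells, eosinophils and NK cells. There were 3 libraries for each population in each genotype, which makes 6 groups. The labels number them as replicates without saying which mice they came from, nor their sex, so the p-values measure the spread between libraries.

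Levels are given as CPM, a gene's counts relative to the TMM-scaled total of the library, in the order of replicates 1, 2 and 3. Library totals ranged from 16512783 to 48460995 counts, so that 3 counts, the floor used here, corresponded to 0.0599 to 0.19 CPM. *Ezr* was 503, 593 and 497 CPM in WT moMs and 282, 160.0 and 252 in Ezr-KOm moMs, with a log2 fold change of -1.20 (edgeR quasi-likelihood test, adjusted p = 0.0549). With the replicate number as a block the adjusted p of *Ezr* in moMs was 0.00194, and over 14 alternatives it ranged from 0.00103 to 0.382, past the threshold in 5 of them. The log2 fold change of *Ezr* was -1.62 in tnsIMs (adjusted p = 0.00365, but 0.0508 without WT tnsIM replicate 1 and 0.0709 with each population fitted alone) and -2.29 in matIMs (adjusted p = 7.73e-05), and in each population all Ezr-KOm libraries were below all WT libraries.

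Macrophage genes were measured in every population, since the group means of *Csf1r* ranged from 1359 to 2621 CPM and those of *Adgre1* from 229 to 427 CPM. These genes belong to a list of 11 markers of the sorted cells. At an edgeR adjusted p under 0.05, 3 of the 11 were higher and 7 lower in matIMs than in moMs of WT mice (median log2 fold change -0.795). Of all tested genes 13.4% were higher and 11.4% lower. *Ly6c2* had group means of 474 to 481 CPM in moMs and of 47.5 to 51.2 CPM in matIMs, and *H2-Ab1* ranged from 984 to 1775 CPM in moMs and from 12522.5 to 17063.5 CPM in matIMs. The 8 markers of dendritic cells summed to 83.3 to 124 CPM in moMs, 308 to 605 in tnsIMs and 5500 to 7600 in matIMs, with *Ccr7* alone at 1481 to 2418 CPM in matIMs. At the same threshold 7 of these 8 were higher in matIMs than in moMs of WT mice (median log2 fold change 4.86), as were 8 of 8 B cell markers (5.98). The 8 alveolar macrophage markers summed to 4980 to 8430 CPM in moMs, 982 to 2090 in tnsIMs and 440 to 757 in matIMs. Of these, 6 were higher and 1 lower in matIMs than in moMs of WT mice. The 8 epithelial markers summed to 83.6 to 185 CPM in moMs, 1720 to 4100 in tnsIMs and 342 to 579 in matIMs. The 11 markers of resident interstitial macrophages summed to 4680 to 6770 CPM in moMs, 2210 to 3880 in tnsIMs and 1630 to 2690 in matIMs. The list did not move one way, since 3 of the 11 were higher and 3 lower in matIMs than in moMs of WT mice (median log2 fold change 0.65). *Folr2*, which marks a subset of resident cells, did not exceed 1.18 CPM in any library. Endothelial markers summed to 98.6 to 141 CPM in moMs, 238 to 511 in tnsIMs and 76.6 to 105 in matIMs, and fibroblast markers to 31.7 to 70.8, 116 to 190 and 19.3 to 38.9 CPM. The part of such differences in cell content in the results on complement genes was not tested. In bulk libraries a smaller share of expressing cells and a lower level per cell cannot be told apart.

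The C1q genes lie side by side on the minus strand of chromosome 4 (GRCm39), *C1qb* at chr4:136607440-136613498, *C1qc* at chr4:136617115-136620376 and *C1qa* at chr4:136623228-136626114. *Cfb* (chr17:35075350-35081494) and *C2* (chr17:35081580-35117241) are neighbours on chromosome 17, which also holds *C3* (chr17:57510970-57535136) and *Ezr* (chr17:7005440-7050183). *C3ar1* lies at chr6:122824097-122833120, *C5ar1* at chr7:15980668-15993465 and *Cfp* at chrX:20791693-20797794. In a later Gencode annotation of this build, *Gm20547*, a protein-coding gene with no row in the count table, shares 65.7% of the exon bases of *Cfb* and 38.4% of those of *C2* on the same strand. The counter used gives reads that overlap more than one gene to neither, so the counts of *Cfb* and *C2* may miss reads. The strand setting of the counts is not given in the sources used here, and 78.2% of the exon bases of *Cfb* and 42.8% of those of *C2* overlap a gene on either strand.

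To show the sequence next to members that moved in opposite directions, the 250 bases upstream of the RefSeq start site are printed for *C1qb*, which was higher in tnsIMs and matIMs, and for *C3* and *C5ar1*, which were lower in matIMs. The sequences are from RefSeq and run 5′ to 3′ on the minus strand, and each matched GRCm39 exactly once near its gene (chr4:136613512-136613761, chr17:57535137-57535386 and chr7:15993264-15993513). Capitals mark matches to the motifs searched on both strands.
C1qb: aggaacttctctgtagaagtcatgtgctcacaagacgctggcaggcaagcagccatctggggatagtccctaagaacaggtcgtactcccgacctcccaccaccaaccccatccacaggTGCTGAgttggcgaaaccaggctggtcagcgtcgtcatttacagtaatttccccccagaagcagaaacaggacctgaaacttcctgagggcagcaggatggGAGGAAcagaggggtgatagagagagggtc
C3: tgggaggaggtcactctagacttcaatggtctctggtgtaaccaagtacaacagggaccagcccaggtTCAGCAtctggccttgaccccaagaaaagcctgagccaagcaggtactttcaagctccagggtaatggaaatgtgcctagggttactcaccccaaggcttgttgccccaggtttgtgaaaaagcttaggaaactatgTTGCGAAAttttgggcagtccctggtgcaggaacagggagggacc
C5ar1: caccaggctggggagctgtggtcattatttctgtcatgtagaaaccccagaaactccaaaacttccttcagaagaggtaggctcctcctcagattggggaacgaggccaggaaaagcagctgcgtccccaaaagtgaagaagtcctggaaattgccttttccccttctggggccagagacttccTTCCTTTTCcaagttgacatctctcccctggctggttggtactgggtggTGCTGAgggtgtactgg

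The motifs were the PU.1 core GAGGAA, the C/EBP motif TTGCNNAA, the Maf half-site TGCTGA, the ISRE half-pair GAAANNGAA, the GAS motif TTCNNNGAA, the TATA box TATAAA and the kappaB motif. The *C1qb* stretch held the Maf half-site at position -131 and the PU.1 core at -30, counted from the start site. The *C3* stretch held the Maf half-site on the opposite strand at -182 and the C/EBP motif at -45. The *C5ar1* stretch held the ISRE half-pair on the opposite strand at -66 and the Maf half-site at -17. No 2 of these matches overlapped. Among 32851 upstream stretches of this length, 23.3% held the PU.1 core, 9.6% the C/EBP motif, 16.1% the Maf half-site, 7.1% the ISRE half-pair, 7.0% the GAS motif, 12.4% the TATA box and 3.9% the kappaB motif. The Maf half-site was also in the *C3ar1* stretch, and not in those of *C1qc* and *Cfp*. Its part in the direction of change was not tested. RefSeq stretches were matched for 6 of the 9 members (*C1qb*, *C1qc*, *C3*, *C3ar1*, *C5ar1* and *Cfp*). In the Gencode annotation 19 bases of the *C3* stretch and 28 of the *C5ar1* stretch lie in exons of the gene itself, and the *C5ar1* stretch lies largely within the annotated span of the gene. Of the *C1qc* stretch 151 bases lie in its own exons, and it is not printed.

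Compared per kilobase of the main transcript, the members spanned a wide range. In WT moMs *C5ar1* (377 ± 47.4 CPM per kb, SD, n = 3) and *Cfp* (359.9 ± 33.7) were highest, followed by *C1qb* (129 ± 14.8), *C3* (114 ± 15.1), *C1qa* (84.4 ± 12.3), *C1qc* (77.5 ± 9.11) and *C3ar1* (43.9 ± 4.40). *Cfb* (4.12 ± 1.37) and *C2* (0.072 ± 0.015) were far lower. *C5ar1* and *Cfp*, *C1qb* and *C3*, and *C1qa* and *C1qc* did not differ from each other beyond their spread. In WT matIMs the order per kilobase was *Cfp* (475 ± 69.6), *C1qb* (297 ± 46.4), *C1qa* (283 ± 67.2), *C1qc* (229 ± 52.5), *C5ar1* (133 ± 6.52), *C3* (35.3 ± 7.40), *C3ar1* (26.4 ± 3.34), *Cfb* (4.85 ± 1.48) and *C2* (0.161 ± 0.019). There the 3 C1q genes lay within their spread of each other, as did *C3* and *C3ar1*. *C5ar1* thus stood level with *Cfp* in WT moMs and below the 3 C1q genes in WT matIMs, and *Cfb* and *C2* were at the bottom in both. The counts of *Cfb* and *C2* may miss reads over exons shared with other genes, and these values are not corrected for that.

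**Figure D1:**
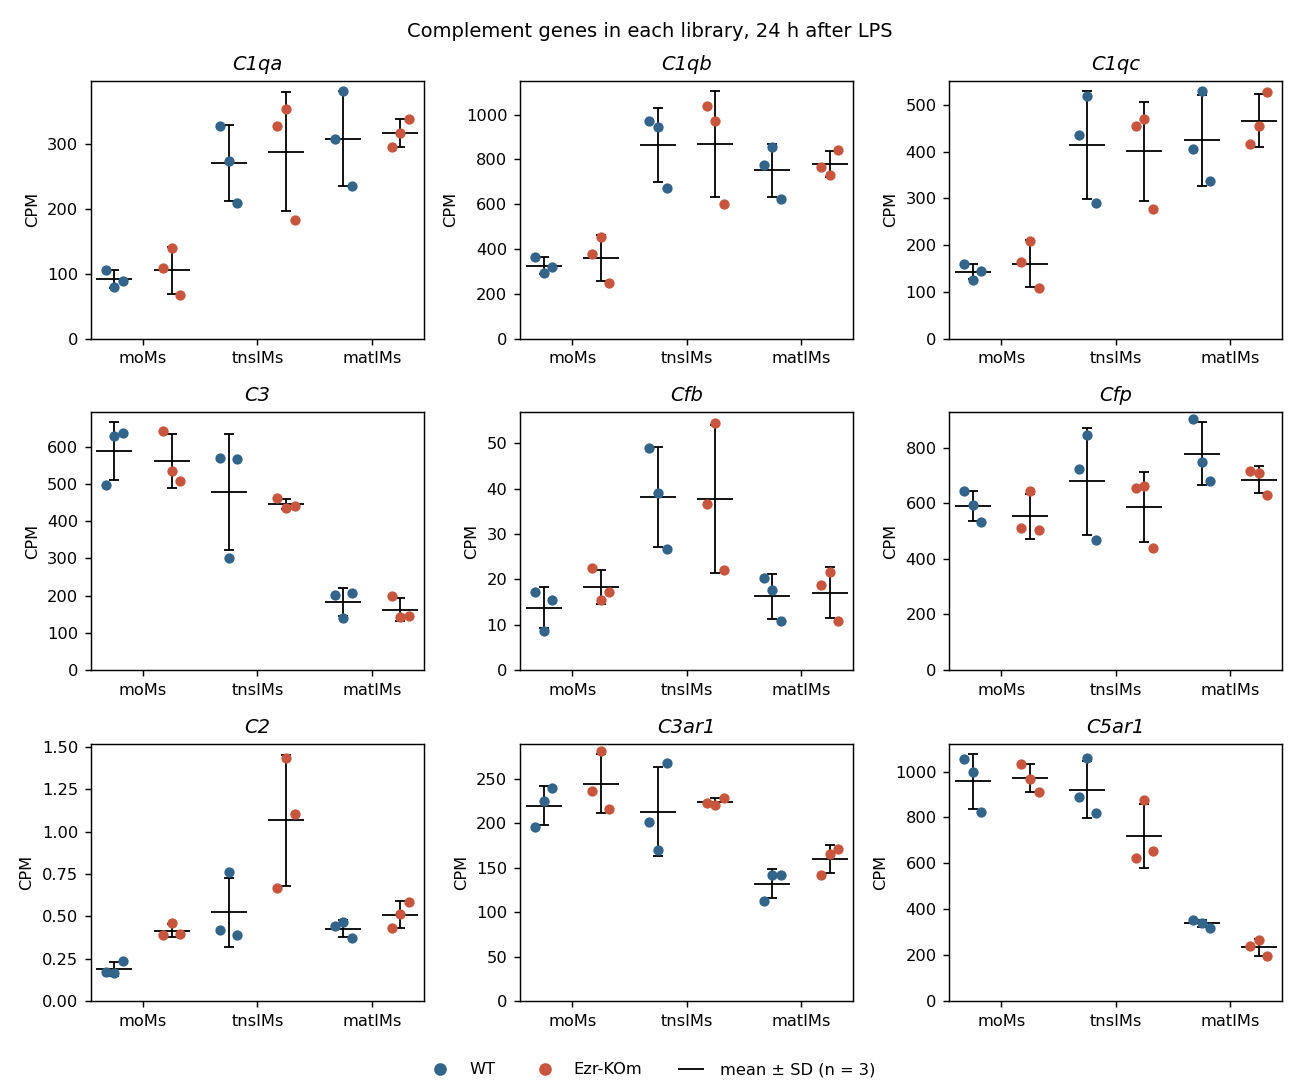
Level of each of the 9 complement genes (CPM, each panel with its own axis from 0) in the 3 libraries of each population in WT (blue) and Ezr-KOm (red) mice, with the mean and SD as black bars. The C1q genes are low in moMs and high in both IM populations, *Cfb* and *C2* are highest on average in tnsIMs, and *C3*, *C3ar1* and *C5ar1* are lowest in matIMs.

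Differences between populations were tested within each genotype, and a member was called at an adjusted p under 0.05 over all tested genes. Between tnsIMs and moMs, 5 of the 9 members were called in WT mice and 5 in Ezr-KOm mice, namely *C1qa*, *C1qb*, *C1qc*, *Cfb* and *C2*, and all were higher in tnsIMs. Of all tested genes, 21.6% were called in WT mice (13% higher and 8.61% lower) and 14.3% in Ezr-KOm mice (9.23% higher and 5.04% lower). Between matIMs and tnsIMs, 4 members were called in each genotype, *C3*, *C3ar1*, *C5ar1* and *Cfb*, and all were lower in matIMs, against 18.5% of all genes in WT mice (8.32% higher and 10.2% lower) and 18.2% in Ezr-KOm mice (8.37% higher and 9.85% lower). Between matIMs and moMs, the 3 C1q genes were higher and *C3*, *C3ar1* and *C5ar1* lower in matIMs in each genotype, against 24.8% of all genes called in WT mice (13.4% higher and 11.4% lower) and 23.3% in Ezr-KOm mice (12.5% higher and 10.7% lower). The comparisons with moMs share the moM libraries, and those with tnsIMs share the tnsIM libraries. The median log2 fold change of the members was 1.39 between tnsIMs and moMs and -0.26 between matIMs and tnsIMs of WT mice, and over all tested genes these medians were 0.01 and 0.04.

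**Figure D2:**
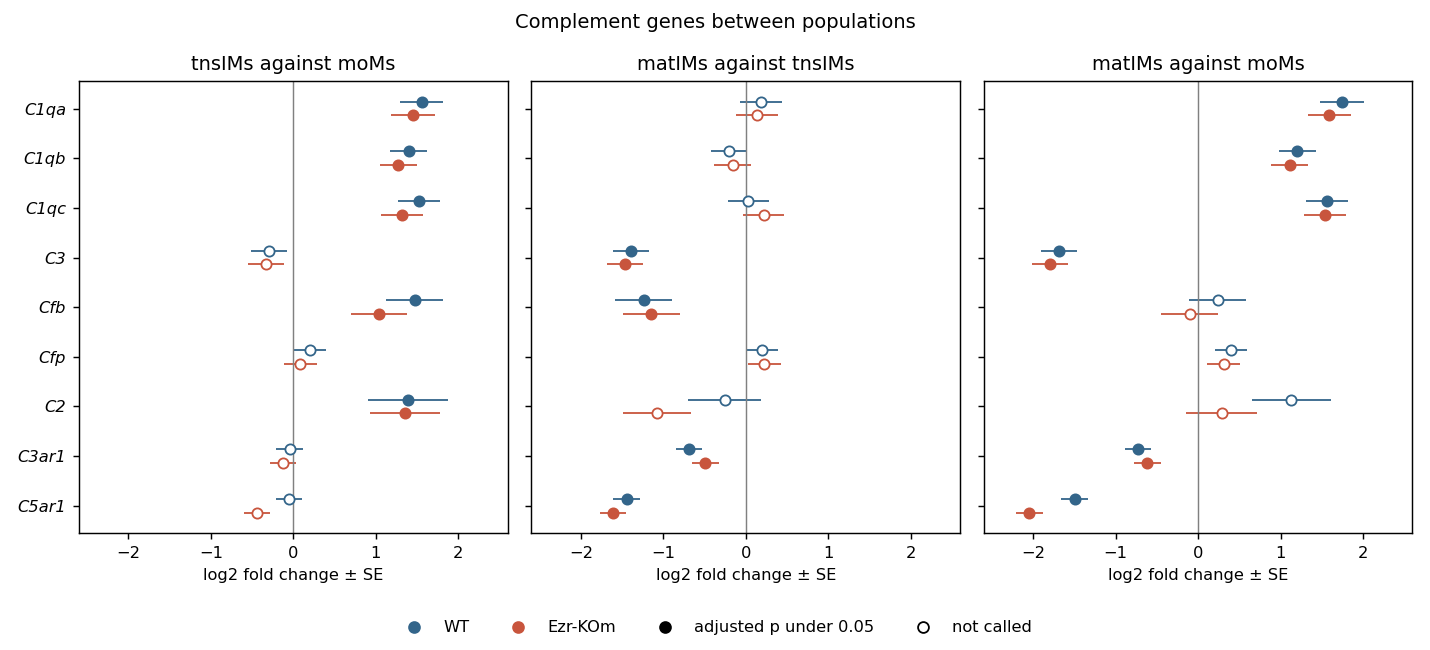
Log2 fold change (points) with its SE (bars) of the 9 complement genes between populations, in WT (blue) and Ezr-KOm (red) mice. Filled points have an adjusted p under 0.05. The genotypes gave values of like size for the C1q genes (1.11 to 1.74 against moMs), and *C5ar1* fell furthest in matIMs of Ezr-KOm mice (-2.05 against moMs).

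The 3 C1q genes were higher in tnsIMs and matIMs than in moMs in both genotypes, by 2.16-fold to 3.35-fold. *C1qa*, the A chain, was 106, 79.8 and 89.3 CPM in WT moMs, 327, 274 and 209 CPM in WT tnsIMs, and 307, 381 and 235 CPM in WT matIMs. It was 108, 139 and 67.4 CPM in Ezr-KOm moMs, 326, 354 and 183 CPM in Ezr-KOm tnsIMs, and 295, 316 and 338 CPM in Ezr-KOm matIMs. All tnsIM and matIM libraries of a genotype were above all its moM libraries. Against moMs, the WT fold of *C1qa* was 2.94 in tnsIMs (log2 fold change 1.56, SE 0.26, edgeR adjusted p = 0.000359) and 3.35 in matIMs (1.74, SE 0.27, adjusted p = 7.67e-05). In Ezr-KOm mice it was 2.74 in tnsIMs (adjusted p = 0.000977) and 3.02 in matIMs (adjusted p = 0.000189).

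*C1qb*, the B chain and the most abundant by CPM, was 367, 293 and 319 CPM in WT moMs, 973, 943 and 674 CPM in WT tnsIMs, and 775, 854 and 623 CPM in WT matIMs. In Ezr-KOm mice *C1qb* was 380.1, 453 and 248 CPM in moMs, 1040.0, 970.1 and 600.1 CPM in tnsIMs, and 767, 728 and 842 CPM in matIMs. No moM library reached the lowest tnsIM or matIM library. *C1qc*, the C chain, was 160.3, 127 and 144 CPM in WT moMs, 435, 518 and 290.0 CPM in WT tnsIMs, and 406, 529 and 337 CPM in WT matIMs. In Ezr-KOm mice *C1qc* was 165, 208 and 107 CPM in moMs, 454, 469 and 278 CPM in tnsIMs, and 417, 454 and 528 CPM in matIMs. Against moMs, the log2 fold change of *C1qb* was 1.40 in tnsIMs and 1.20 in matIMs of WT mice, and 1.27 and 1.11 in Ezr-KOm mice. That of *C1qc* was 1.53 and 1.56 in WT mice and 1.32 and 1.54 in Ezr-KOm mice. The largest edgeR adjusted p of these 8 values was 0.00154. Between matIMs and tnsIMs no C1q gene was called, and the log2 fold changes lay between -0.20 and 0.22 with SEs of 0.22 to 0.26.

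The 3 chains did not rise in equal measure. In moMs *C1qb* took 58.1 ± 0.475% of the summed C1q counts in WT and 57.8 ± 1.05% in Ezr-KOm mice (SD, n = 3). Its share was 56.0 ± 1.54% and 55.9 ± 1.60% in tnsIMs and 50.9 ± 2.14% and 49.9 ± 1.71% in matIMs. The 6 matIM libraries (48.4% to 52.1%) lay below all moM libraries (56.6% to 58.7%) and all tnsIM libraries (54.1% to 57.4%). The share of *C1qa* was 16.3% in WT and 16.6% in Ezr-KOm moMs and 20.6% and 20.3% in matIMs, and that of *C1qc* went from 25.6% in moMs of both genotypes to 28.5% and 29.8% in matIMs. WT tnsIM replicate 2 stood apart with a *C1qc* share of 29.8%, against 24.7% and 25.1% in the other WT tnsIM libraries. A share of counts depends on transcript length and coverage, so these values compare libraries, not amounts of protein chains.

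**Figure D3:**
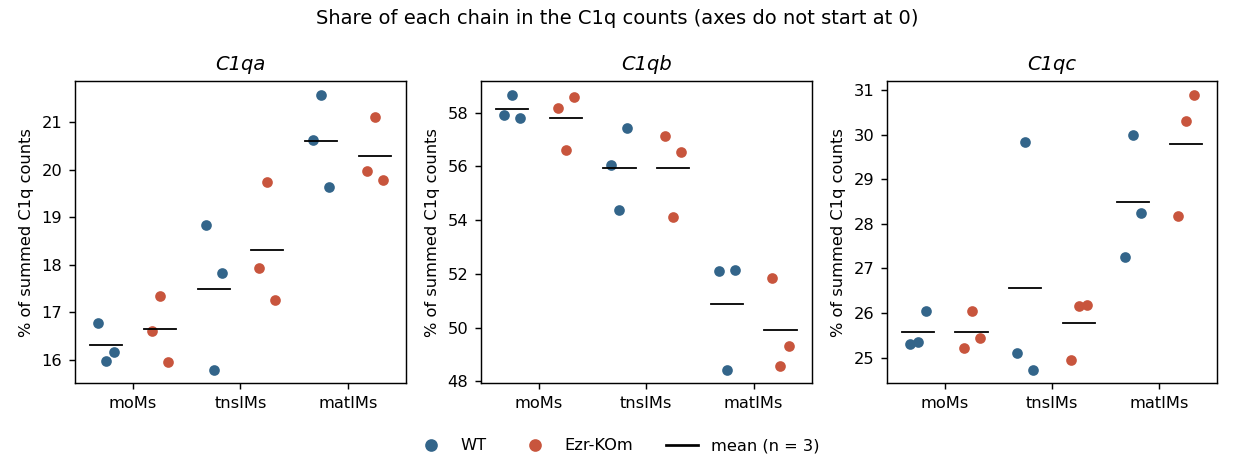
Share of each chain in the summed counts of *C1qa*, *C1qb* and *C1qc* (percent, axes not from 0) in the 3 libraries of each population in WT (blue) and Ezr-KOm (red) mice, with group means as black lines. The *C1qb* share is lowest in the 6 matIM libraries (48.4% to 52.1%), where the *C1qa* share is highest in mean.

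*C2* was close to the floor in every group. It had 3, 4 and 6 counts in WT moMs (0.171, 0.166 and 0.236 CPM), 10, 12 and 10 counts in WT tnsIMs (0.417, 0.761 and 0.392 CPM), and 10, 11 and 10 counts in WT matIMs (0.443, 0.470 and 0.373 CPM). In Ezr-KOm mice it had 9, 12 and 9 counts in moMs (0.391, 0.463 and 0.397 CPM), 16, 72 and 26 in tnsIMs (0.665, 1.44 and 1.10 CPM), and 12, 15 and 14 in matIMs (0.430, 0.516 and 0.587 CPM). Both tnsIM groups lay above their moMs, with a log2 fold change of 1.39 in WT mice (SE 0.48, edgeR adjusted p = 0.0469) and 1.36 in Ezr-KOm mice (SE 0.42, adjusted p = 0.0363). The WT call was lost in 10 of 14 alternatives (largest adjusted p 0.173), which included DESeq2 (0.0802), no filter on low counts (0.0710) and leaving out any 1 of the moM libraries or tnsIM replicate 1 or 2 (0.0612 to 0.173). It was lost in 7 of 14 for Ezr-KOm mice, which included leaving out any 1 of the moM libraries or tnsIM replicate 2 or 3 (0.0625 to 0.193). The log2 fold change of matIMs against tnsIMs was -0.26 in WT and -1.07 in Ezr-KOm mice (adjusted p = 0.784 and 0.0824), and in Ezr-KOm mice it was -1.33 (adjusted p = 0.0485) without tnsIM replicate 1.

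*C3*, the component on which the pathways converge, was lowest in matIMs. It was 498, 629 and 636 CPM in WT moMs, 568, 299.6 and 568 CPM in WT tnsIMs, and 201, 138 and 208 CPM in WT matIMs. In Ezr-KOm mice *C3* was 643, 533 and 507 CPM in moMs, 461, 434 and 441 CPM in tnsIMs, and 198, 142 and 145 CPM in matIMs. All matIM libraries were below all others, and WT tnsIM replicate 2 stood apart from the other WT tnsIM libraries. Against tnsIMs, *C3* in matIMs was 2.63-fold lower in WT mice (log2 fold change -1.39, SE 0.22, edgeR adjusted p = 0.000143) and 2.76-fold lower in Ezr-KOm mice (-1.46, SE 0.22, adjusted p = 9.02e-05). Against moMs the log2 fold changes were -1.69 and -1.80 (adjusted p = 1.42e-05 and 7.46e-06). Between tnsIMs and moMs they were -0.30 in WT and -0.33 in Ezr-KOm mice and were not called (adjusted p = 0.358 and 0.353).

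The alternative pathway genes followed another pattern. *Cfb* was 17.3, 8.58 and 15.6 CPM in WT moMs, 48.9, 39 and 26.8 CPM in WT tnsIMs, and 20.4, 17.6 and 10.8 CPM in WT matIMs. In Ezr-KOm mice *Cfb* was 22.6, 15.4 and 17.1 CPM in moMs, 36.6, 54.6 and 22.1 CPM in tnsIMs, and 18.8, 21.6 and 10.9 CPM in matIMs. The WT tnsIM libraries did not overlap with the other WT groups, whereas the lowest Ezr-KOm tnsIM library lay below the highest moM library. Against moMs, *Cfb* in tnsIMs was 2.78-fold higher in WT mice (log2 fold change 1.47, SE 0.35, edgeR adjusted p = 0.00513) and 2.06-fold higher in Ezr-KOm mice (1.04, SE 0.34, adjusted p = 0.0491). The Ezr-KOm call was lost in 6 of 15 alternatives, which included leaving out moM replicate 2 or 3 or tnsIM replicate 1 or 2 (adjusted p 0.0929 to 0.293), and the log2 fold change was 0.67 without tnsIM replicate 2. Against tnsIMs, *Cfb* in matIMs was 2.35-fold lower in WT and 2.21-fold lower in Ezr-KOm mice (adjusted p = 0.0156 and 0.0238). The WT call was lost without tnsIM replicate 1 (adjusted p = 0.0781) or matIM replicate 3 (0.0783), and the Ezr-KOm call without tnsIM replicate 2 (0.175) or matIM replicate 3 (0.113). Epithelial markers were also highest in tnsIMs, with *Sftpc* at 572 to 1876 CPM there and 7.40 to 43.4 CPM in moMs, and their part in the level of *Cfb* was not tested. The sort used a CD45+ gate, and epithelial transcripts were measured in these sorted libraries.

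*Cfp* was abundant throughout and was not called in any population comparison without the replicate block. It was 643, 596 and 533 CPM in WT moMs, 725, 846 and 468 CPM in WT tnsIMs, and 905, 749 and 682 CPM in WT matIMs. In Ezr-KOm mice *Cfp* was 509.9, 646 and 503 CPM in moMs, 656, 663 and 440.4 CPM in tnsIMs, and 715, 711 and 629 CPM in matIMs. The WT matIM libraries lay above the WT moM libraries, by a log2 fold change of 0.40 (SE 0.20, edgeR adjusted p = 0.161, and 0.0387 in the fit blocked on the replicate number). The edgeR p-values of the 6 comparisons were between 0.0592 and 0.671.

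*C5ar1*, the receptor through which C5a recruits and activates myeloid cells, changed more between populations than *C3ar1*. It was 1054, 996 and 822 CPM in WT moMs, 889, 1058 and 818 CPM in WT tnsIMs, and 354, 342 and 321 CPM in WT matIMs. In Ezr-KOm mice *C5ar1* was 1035, 969 and 913 CPM in moMs, 622, 877 and 655 CPM in tnsIMs, and 242, 268 and 196 CPM in matIMs. All 6 matIM libraries were below all other libraries. Against moMs, *C5ar1* in matIMs was 2.83-fold lower in WT mice (log2 fold change -1.50, SE 0.16, edgeR adjusted p = 1.27e-06) and 4.13-fold lower in Ezr-KOm mice (-2.05, SE 0.16, adjusted p = 3.11e-08). Against tnsIMs the log2 fold changes were -1.44 and -1.61 (adjusted p = 3.25e-06 and 1.34e-06). In Ezr-KOm mice all tnsIM libraries lay below all moM libraries, with a log2 fold change of -0.44 (SE 0.16, adjusted p = 0.0735), and this value was called without tnsIM replicate 2 (-0.61, adjusted p = 0.0217) and in the fit blocked on the replicate number (-0.45, adjusted p = 0.0128). In WT mice that log2 fold change was -0.05 (SE 0.16).

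*C3ar1*, the receptor for C3a, was 196, 225 and 239 CPM in WT moMs, 201, 170.3 and 268 CPM in WT tnsIMs, and 113, 142 and 142 CPM in WT matIMs. In Ezr-KOm mice *C3ar1* was 237, 282 and 216 CPM in moMs, 223, 221 and 229 CPM in tnsIMs, and 142, 166 and 171 CPM in matIMs. The matIM libraries of each genotype were below its other libraries. Against tnsIMs, *C3ar1* in matIMs was 1.61-fold lower in WT mice (log2 fold change -0.69, SE 0.16, edgeR adjusted p = 0.00472) and 1.40-fold lower in Ezr-KOm mice (-0.49, SE 0.16, adjusted p = 0.0396). The Ezr-KOm call was lost without tnsIM replicate 1 or 2 and without matIM replicate 1 or 2 (adjusted p 0.0606 to 0.101), and on library totals alone (0.103). Against moMs the log2 fold changes were -0.73 and -0.62 (adjusted p = 0.00221 and 0.00816), and on library totals alone the second had an adjusted p of 0.0583.

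Between genotypes, 0 of the 9 members were called by edgeR at an adjusted p under 0.05 in moMs, tnsIMs or matIMs, where 0.171%, 0.164% and 0.152% of all genes were called. DESeq2 also called 0 in each population. At an unadjusted p under 0.05 there were 1, 2 and 1 members, against 592, 512 and 607 of the 15811 genes, and the study's own rule, which asks for a log2 fold change beyond 0.75 in either direction and a p under 0.05 before adjustment, was met by 1, 1 and 0 members, against 2.51%, 1.83% and 2.4% of all genes. The genotype effect did not differ between any pair of populations for any member or any other gene at an adjusted p under 0.05 (0% of genes in the comparisons of tnsIMs with moMs, of matIMs with tnsIMs and of matIMs with moMs), and the members with an unadjusted p under 0.05 numbered 0, 0 and 1, against 233, 183 and 268 of all genes.

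The C1q genes gave log2 fold changes of Ezr-KOm against WT between 0.14 and 0.19 in moMs, -0.05 and 0.09 in tnsIMs, and 0.04 and 0.14 in matIMs, with SEs of 0.22 to 0.26. The summed C1q level was 562 ± 67.5 CPM in WT and 625 ± 190 CPM in Ezr-KOm moMs, 1547 ± 324 and 1558 ± 431 CPM in tnsIMs, and 1482 ± 284 and 1562 ± 127 CPM in matIMs (SD, n = 3). The libraries of the genotypes overlapped in every population. *C3* (-0.17 to -0.07), *Cfp* (-0.21 to -0.10), *C3ar1* (0.07 to 0.27) and *Cfb* (-0.01 to 0.42) overlapped as well. Their SEs were 0.16 to 0.34.

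*C5ar1* gave the smallest p of the members. In matIMs all 3 Ezr-KOm libraries (196 to 268 CPM) lay below all 3 WT libraries (321 to 354 CPM), with a log2 fold change of -0.53 (SE 0.16, edgeR adjusted p = 0.623, unadjusted 0.00365). This fold is below the bound of the study's rule. The log2 fold change ranged from -0.63 to -0.40 over the alternatives, and the adjusted p from 0.0967 to 1. In tnsIMs it was -0.36 (SE 0.16, adjusted p = 1, unadjusted 0.0344), with overlapping libraries, and in moMs it was 0.02 (SE 0.16). The genotype effect on *C5ar1* in matIMs differed from that in moMs by -0.55 on the log2 scale (SE 0.22, adjusted p = 1.00, unadjusted 0.0239).

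*C5ar2*, at chr7:15968510-15978079 next to *C5ar1*, encodes the second receptor for C5a, which does not couple to G proteins. It is not among the 9 members and was taken from a list of other complement genes, where it met the study's rule in all 3 populations. Same-numbered libraries of different populations of a genotype deviated together (r 0.0905 to 0.397). Those of different genotypes within a population did so too (r 0.102 to 0.316). Shared mice and a batch tied to the number cannot be told apart here. The 3 results are therefore not taken as independent. In WT mice *C5ar2* was 10.8, 12.8 and 10.5 CPM in moMs, 6.97, 5.64 and 8.93 CPM in tnsIMs, and 2.22, 2.05 and 2.94 CPM in matIMs. In Ezr-KOm mice *C5ar2* was 5.31, 7.10 and 3.04 CPM in moMs, 2.83, 5.01 and 2.42 CPM in tnsIMs, and 0.681, 1.27 and 0.419 CPM in matIMs. All Ezr-KOm libraries were below all WT libraries of the same population. The log2 fold changes were -1.14 (SE 0.35, edgeR adjusted p = 0.640, unadjusted 0.00425), -1.06 (SE 0.35, adjusted p = 0.965, unadjusted 0.00746) and -1.58 (SE 0.40, adjusted p = 0.270, unadjusted 0.000821) in moMs, tnsIMs and matIMs. With DESeq2 the adjusted p in matIMs was 0.0196, and over all alternatives it ranged from 0.0196 to 0.906 there.

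*C2* met the study's rule in moMs (log2 fold change 1.10, SE 0.48, edgeR adjusted p = 1, unadjusted 0.0354) and tnsIMs (1.07, SE 0.42, adjusted p = 1, unadjusted 0.0201). In moMs the 9 to 12 counts of the Ezr-KOm libraries lay above the 3 to 6 counts of the WT libraries, and in tnsIMs the libraries overlapped. In moMs the rule was no longer met without WT replicate 1 or 2 or without any 1 of the Ezr-KOm libraries (p 0.0530 to 0.0921). In tnsIMs it was no longer met without WT replicate 1 or 3 or without Ezr-KOm replicate 2 (p 0.0709 to 0.118). In matIMs the log2 fold change was 0.25 (SE 0.43).

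**Figure D4:**
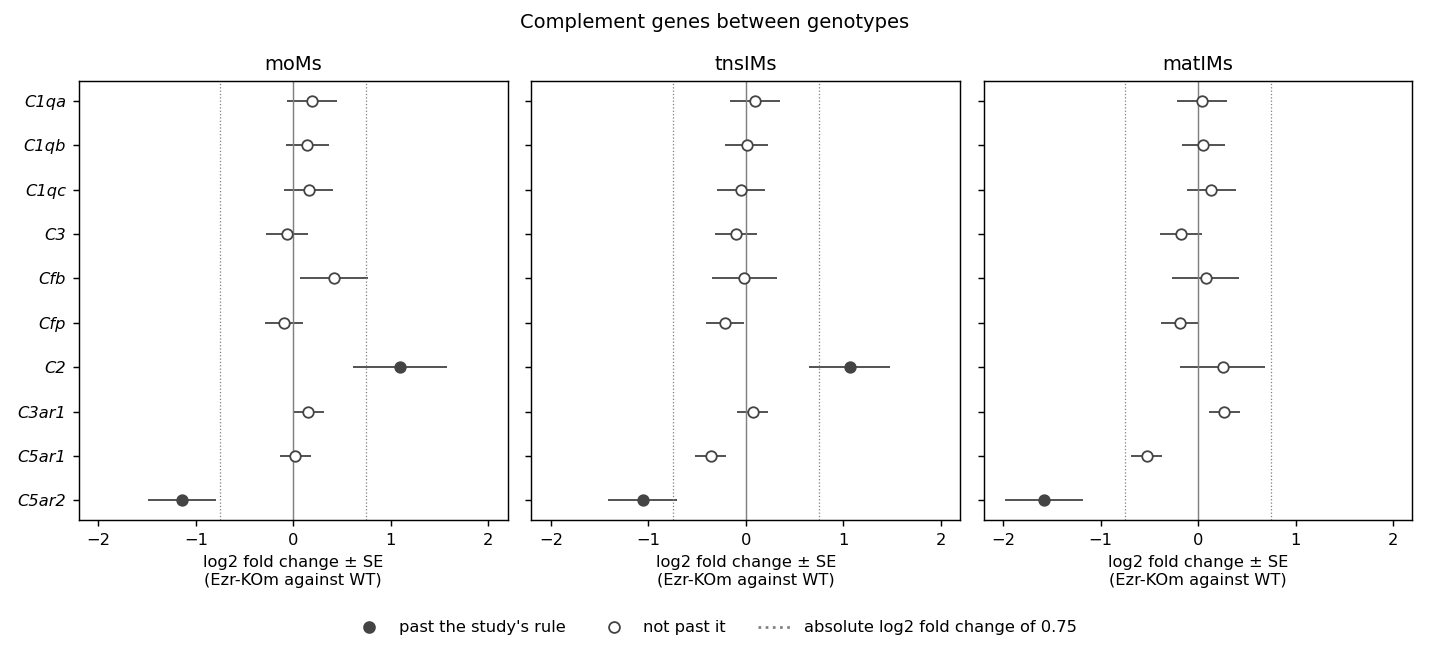
Log2 fold change of Ezr-KOm against WT (points) with its SE (bars) in each population for the 9 complement genes and for *C5ar2*. Filled points meet the study's rule, and dotted lines mark its fold bound. *C5ar2* meets it in the 3 populations, *C2* in moMs and tnsIMs, and the C1q genes lie between -0.05 and 0.19.

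The stretch of chromosome 4 around the C1q genes held genes that did differ between genotypes. Of 160 other genes tested within 5 Mb of *C1qa*, 18 met the study's rule in moMs (11.2%, of which 13 were lower in Ezr-KOm mice), 13 in tnsIMs (8.12%, 11 lower) and 12 in matIMs (7.5%, 12 lower). Of all tested genes 2.51%, 1.83% and 2.4% met it. At an edgeR adjusted p under 0.05, 4, 3 and 2 of the 160 were called, against 0.171%, 0.164% and 0.152% of all genes. Those with the smallest p were *Tcea3*, *Cep85* and *Padi4* in moMs, *Tcea3*, *Hmgn2* and *Zfp46* in tnsIMs, and *Cep85*, *Hmgn2* and *Tcea3* in matIMs. *Tcea3*, which encodes a transcription elongation factor and lies at chr4:135975040-136002209, had log2 fold changes of -5.46, -3.44 and -3.08 (edgeR adjusted p = 0.000371, 0.0123 and 0.0789). *Zfp46*, at chr4:136011994-136021253, had -1.52 in tnsIMs (edgeR adjusted p = 0.0316). In tnsIMs the call was lost in 6 of 14 alternatives for *Zfp46*, 8 of 14 for *Hmgn2* and 4 of 13 for *Tcea3*. It was also lost in 5 of 14 for *Padi4* in moMs and 6 of 14 for *Hmgn2* in matIMs. The calls of *Cep85* in moMs and matIMs held in all 14, and that of *Tcea3* in moMs in all 13. The C1q genes themselves lay close to 0 in the 3 populations. Around *Cfb*, 6, 3 and 6 of 206 genes met the rule (2.91%, 1.46% and 2.91%), and around *C3*, 0, 1 and 1 of 60 genes did. What sets this stretch of chromosome 4 apart was not tested.

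**Figure D5:**
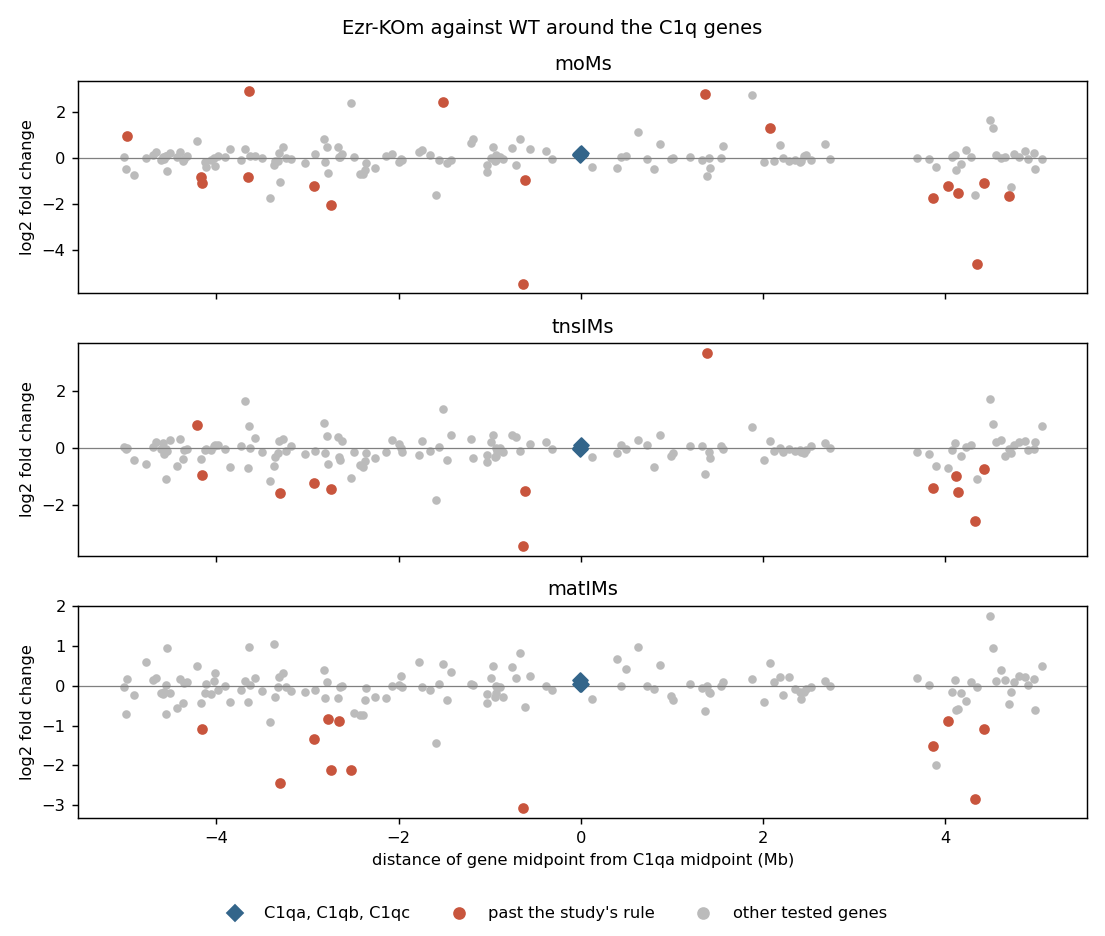
Log2 fold change of Ezr-KOm against WT for the tested genes within 5 Mb of *C1qa*, by the distance of the gene's midpoint from that of *C1qa* (Mb), in the 3 populations. Red points meet the study's rule (18, 13 and 12 genes), and the blue diamonds are the C1q genes, between -0.05 and 0.19.

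Of 43 other complement genes listed, 33 were in the count table and 26 were tested. Between tnsIMs and moMs, 11 were higher and 3 lower in WT mice (13% and 8.61% of all genes) and 11 higher and 2 lower in Ezr-KOm mice (9.23% and 5.04%). Between matIMs and tnsIMs, 0 were higher and 13 lower in WT mice (8.32% and 10.2% of all genes), and 1 was higher and 14 lower in Ezr-KOm mice (8.37% and 9.85%). Between matIMs and moMs, 6 were higher and 9 lower in WT mice (13.4% and 11.4% of all genes) and 7 higher and 8 lower in Ezr-KOm mice (12.5% and 10.7%). Between genotypes edgeR called 0 of the 26 in each population (0.171%, 0.164% and 0.152% of all genes in moMs, tnsIMs and matIMs). In the same order, 3, 1 and 2 had an unadjusted p under 0.05, against 592, 512 and 607 of the 15811 genes. The study's rule was met by 2, 1 and 2, against 2.51%, 1.83% and 2.4% of all genes. DESeq2, read for the genes named here, called *C5ar2* and *C7* in matIMs, where it called 52 of the 15811 genes and edgeR 24. The genes that met the study's rule are named next. These were *C5ar2* in the 3 populations, *Cr2* in moMs (0 counts in the WT and 2 to 4 counts in the Ezr-KOm libraries) and *C7* in matIMs. *C7*, a component of the membrane attack complex, had a log2 fold change of 1.43 there (SE 0.31, edgeR adjusted p = 0.102, DESeq2 adjusted p = 0.00474).

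Among inhibitors, *Clu*, whose product clusterin binds terminal complexes, averaged 5.48 ± 0.262 CPM in moMs of WT mice, while their tnsIMs had 94.4 ± 20.4 CPM and their matIMs 39.2 ± 6.73 CPM (SD, n = 3). Its log2 fold change against moMs was 4.11 in tnsIMs and 2.84 in matIMs of WT mice (edgeR adjusted p = 1.28e-07 and 1.11e-06), and 4.0 and 3.16 in Ezr-KOm mice. *Serping1*, the C1 inhibitor, was 10.5 ± 2.53, 49.5 ± 21.4 and 8.03 ± 1.40 CPM in these WT groups, with log2 fold changes of 2.24 in tnsIMs against moMs and -2.62 in matIMs against tnsIMs. *Cd55*, a membrane inhibitor of convertases, was 1.04 ± 0.360, 6.83 ± 2.68 and 13 ± 1.05 CPM, with a log2 fold change of 3.66 in matIMs against moMs of WT mice and 4.12 in Ezr-KOm mice. In Ezr-KOm mice *Cd55* was also higher in matIMs than in tnsIMs (1.34, adjusted p = 0.00615, and 0.0551 without matIM replicate 3). *Cr1l*, a further membrane regulator, had a log2 fold change of -0.44 in tnsIMs against moMs of WT mice (adjusted p = 0.0144, and 0.0519 without tnsIM replicate 1).

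*Clu* and *Serping1* thus peaked in tnsIMs, as did *Hc* and *C7*. Endothelial markers moved with them in WT mice. At an edgeR adjusted p under 0.05, 8 of 8 were higher in tnsIMs than in moMs (13% of all genes) and 8 of 8 lower in matIMs than in tnsIMs (10.2% of all genes). Fibroblast markers (6 of 8 higher, then 6 of 8 lower) and epithelial markers (6 of 8 higher, then 5 of 8 lower) did so too. In Ezr-KOm mice 8 and then 7 of 8 endothelial, 6 and 6 fibroblast, and 6 and 5 epithelial markers did so, against 9.23% and 9.85% of all genes. The median log2 fold change in tnsIMs against moMs of WT mice was 2.07 for endothelial, 1.6 for fibroblast and 4.26 for epithelial markers. The sort used a CD45+ gate, and transcripts of these cell types were measured in the sorted libraries. The part of such transcripts in these results was not tested.

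Among components and receptors, *Hc*, which encodes C5, averaged 0.394 ± 0.177 CPM in moMs of WT mice, 12.1 ± 6.10 in their tnsIMs and 1.87 ± 0.123 in their matIMs, with a log2 fold change of 4.91 in tnsIMs against moMs of WT mice (edgeR adjusted p = 8.09e-06) and 4.92 in Ezr-KOm mice. *C7* had a log2 fold change in matIMs against tnsIMs of -3.32 in WT and -2.01 in Ezr-KOm mice. *Fcnb*, a ficolin of the lectin pathway, was 5.05 ± 0.559 CPM in WT moMs and 0.321 ± 0.134 CPM in WT tnsIMs, and had 0 to 3 counts in WT matIMs. *C4b*, which encodes C4, had a log2 fold change in matIMs against moMs of -2.89 in WT and -3.08 in Ezr-KOm mice. *Cd93*, once described as a C1q receptor, was 98.3 ± 7.05 CPM in WT moMs, 77.1 ± 14.3 in tnsIMs and 26.5 ± 7.12 in matIMs, and *Itgax*, a subunit of complement receptor 4, was 269 ± 19.0, 555 ± 108 and 657 ± 51.9 CPM. *Cr2*, a receptor of B cells, had 0 counts in each WT moM library and 75 to 172 counts in the WT matIM libraries, where the B cell marker *Cd79a* was 46.4 to 72.5 CPM against at most 0.399 CPM in WT moMs.

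Genes with a pattern like that of a member were found from the root mean square difference of centred log2 CPM over the 18 libraries. Those nearest to *C1qa* outside the members were *Cd63* (0.246), *Rhoc* (0.256) and *Stard10* (0.273), while *C1qc* was nearer (0.124). *C1qb* was nearest to *Eva1b*, *Rhoc* and *Hvcn1* (0.219 to 0.238), and *C1qc* to *Rhoc*, *Cd63* and *Eva1b* (0.225 to 0.252). For *C3* these genes were *Rnase4*, *C1rl* and *Slc16a10* (0.251 to 0.290), and for *C5ar1* they were *Nt5dc2*, *Trem3* and *Gstm1* (0.217 to 0.244). *C3* and *C5ar1* differed from each other by 0.361. *C3ar1* was nearest to *2610002M06Rik*, *Trappc14* and *Rab32* (0.156 to 0.168), *Cfb* to *Spry1*, *Ccl3* and *Fth1-ps* (0.361 to 0.387), and *C2* to *Clcf1*, *Tspan4* and *Rasl11b* (0.376 to 0.380). *Cfp*, which varied least (root mean square deviation 0.275), was nearest to *Park7*, *Commd10* and *Ndufa9* (0.110 to 0.136).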

How the data were processed

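Counts per gene had been deposited by the authors as 1 table of 18 libraries. Per the study's methods and the labels, RNA of FACS-sorted cells was amplified with SMART-Seq v4, reads were aligned to GRCm39 with STAR 2.7.9a, and reads per gene were counted with the Gencode M29 annotation. The strand column taken is not given in the sources used here. All columns matched labelled libraries (0 columns outside the labels).

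The deposited counts were tested with the edgeR quasi-likelihood test (version 4.0.16, R 4.3.3, two-sided) in 1 model of the 6 groups, with TMM scaling (factors 0.931 to 1.07) and the default expression filter (smallest count 10), and p-values were adjusted by Benjamini-Hochberg over 15811 genes, while 5443 genes were not tested. The self-written steps were tested on simulated data. A fold change is on edgeR's log2 scale, and levels are CPM. Per-kilobase levels used the canonical transcript of Gencode M39. Upstream sequences and names came from RefSeq. The precision of a level is limited by counting error near the floor of 3 counts and otherwise by the spread between libraries.

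The members, the lists of other complement genes and of markers, and the tests were chosen with earlier results of these data known. All members are named, with up to 3 higher and 3 lower genes of the complement list per comparison, taken by p from those called, those past the study's rule between genotypes, the 3 neighbours with the smallest p, and the 3 genes most alike. A gene that this rule names is not reported here. No 2 libraries held identical values. Libraries with the same replicate number deviated together across genotypes (r 0.102 to 0.316 over 9 pairs, against at most 0.0508 for other numbers). Within the other genotype of its population, each of the 18 libraries had its highest r with the same number. This is a hint that the numbers pair the genotypes. The main model held no block for the number, and the pairing was used only in the replicate-block alternative. With that block edgeR called 42, 34 and 38 genes between genotypes in moMs, tnsIMs and matIMs, against 27, 26 and 24 without it. Between tnsIMs and moMs of WT mice it called 4572 genes, against 3411 without it. The alternatives were DESeq2 (version 1.42.0), upper-quartile scaling, library totals, other filters, robust empirical Bayes, separate fits, the replicate block, and leaving out each library.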

Additional observations from a re-analysis of the deposited data

How the results depend on the processing

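The calls of the C1q genes, *C3* and *C5ar1* between populations kept their direction and their side of the threshold under every alternative run. The members meeting the study's rule in moMs numbered 0 instead of 1 under DESeq2, with at least 10 counts in every library and with each population fitted alone, and 0 to 1 when libraries were left out in turn. In tnsIMs they numbered 0 instead of 1 with at least 10 counts in every library and with each population alone, and 0 to 1 without single libraries. Between tnsIMs and moMs of Ezr-KOm mice 3 instead of 5 members were called with each genotype alone and 3 to 4 without single libraries, and between matIMs and tnsIMs of Ezr-KOm mice 2 to 4 without single libraries. The cause was not tested.

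With the replicate number as a block, *Cfp* in matIMs against moMs of WT mice (0.40, adjusted p = 0.0387) and *C5ar1* in tnsIMs against moMs of Ezr-KOm mice (-0.45, adjusted p = 0.0128) were called. Same-numbered libraries of different populations of a genotype correlated at 0.0905 to 0.397. The pairing of populations is thus a hint from the data, and what the number stands for was not tested.

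None of the values that changed sign was called. For Ezr-KOm against WT, *C1qb* in tnsIMs was -0.0014 under DESeq2 and -0.00026 with the replicate block, and *Cfb* in tnsIMs 0.012 on library totals. Between tnsIMs and moMs of WT mice, *C3ar1* was 0.046 with upper-quartile scaling, 0.031 on library totals and 0.0043 with at least 10 counts, and *C5ar1* was 0.040 and 0.0067 under the first pair of these. *C1qc* in matIMs against tnsIMs of WT mice was -0.024 with upper-quartile scaling and -0.0034 with at least 10 counts. *Cfb* in matIMs against moMs of Ezr-KOm mice was 0.024 and the difference of the *C2* genotype effect between tnsIMs and moMs 0.0056, both on library totals.

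Without single libraries, Ezr-KOm against WT in moMs ranged from -0.054 to 0.43 for *C1qa*, -0.050 to 0.35 for *C1qb*, -0.070 to 0.37 for *C1qc* and -0.078 to 0.091 for *C5ar1*. In tnsIMs it ranged from -0.085 to 0.36 for *C1qa*, -0.15 to 0.25 for *C1qb*, -0.25 to 0.19 for *C1qc*, -0.35 to 0.076 for *C3*, -0.061 to 0.26 for *C3ar1* and -0.38 to 0.28 for *Cfb*. In matIMs it ranged from -0.12 to 0.23 for *C1qa*, -0.067 to 0.16 for *C1qb*, -0.0048 to 0.33 for *C1qc* and -0.16 to 0.33 for *Cfb*. Between tnsIMs and moMs the range was -0.15 to 0.046 for *C5ar1* and -0.22 to 0.11 for *C3ar1* in WT mice, and -0.013 to 0.29 for *Cfp* in Ezr-KOm mice. Between matIMs and tnsIMs of WT mice it was -0.030 to 0.33 for *C1qa*, -0.22 to 0.19 for *C1qc*, -0.062 to 0.35 for *Cfp* and -0.48 to 0.051 for *C2*. Of Ezr-KOm mice it was -0.16 to 0.31 for *C1qa*, -0.042 to 0.35 for *C1qc* and -0.00013 to 0.32 for *Cfp*. Between matIMs and moMs *Cfb* ranged from -0.035 to 0.46 in WT and from -0.31 to 0.12 in Ezr-KOm mice. The difference of the genotype effect ranged from -0.32 to 0.31 for *C2* between tnsIMs and moMs and from -0.28 to 0.0028 for *C5ar1* between matIMs and tnsIMs. Genes outside the members were run under the same alternatives, chosen after seeing the data.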
